A study of Mus musculus with 5 samples.

Results

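The cytosolic and mitochondrial heat shock chaperones studied here were 10 named genes. They were listed by symbol, at a time when earlier results of these data were known. All probe sets annotated to a single one of these symbols were taken, which gave 25 of the 45037 probe sets on the array. They stood for 9 of the 10 genes, out of 18193 genes with a probe set. Hsp90ab1, the gene of the constitutive HSP90 beta, had no such probe set and is not analysed here. Hspa9 and Hsp90aa1 had 5 probe sets each, Hspa8 had 4, Hspa1b had 3, Hsph1, Dnajb1 and Hspe1 had 2 each, and Hspa1a and Hspd1 had 1 each.

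Signals came from Affymetrix mouse expression arrays of splenic CD4 T cells (BALB/c strain), and each of 5 groups was measured on 1 array. These were naive cells, memory Th1 cells, control effector Th1 cells, and effector Th1 cells labelled Rap or TOFA. Effector cells are described as Th1 cultures of 5 days with IL-2 at 15 ng/ml and IL-12 at 10 ng/ml, a protocol that the labels attach to all 5 samples. TOFA is known as an inhibitor of acetyl-CoA carboxylase, the enzyme that commits acetyl-CoA to fatty acid synthesis. The labels do not expand Rap, give no dose of either agent and no age of the mice, and do not say how the memory cells were obtained or whether animals were pooled. With no replicate, no p-value, SD or SE between samples exists for any difference, and "higher" and "lower" describe these 5 arrays only.

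Heat shock chaperones bind unfolded protein chains and release them in cycles driven by ATP. In the cytosol, HSP70 proteins receive clients from J-domain co-chaperones, exchange factors such as HSP110 reset them, and HSP90 matures kinases and receptors, many of which act in T cell signalling. In mitochondria, a dedicated HSP70 pulls imported proteins into the matrix, and the HSP60 chamber with its HSP10 lid folds them. Growing cells carry more of the constitutive chaperones, while the stress-inducible ones are raised when heat shock factor 1 binds heat shock elements, inverted repeats of the letters GAA.

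Promoter windows from RefSeq (GRCm38.p6), reaching from 250 bases before to 50 bases after an annotated start, were at hand for 6 of the members: Hspa1a, Hspa1b, Hsph1, Dnajb1, Hspd1 and Hspe1. Each window was searched on both strands for a pair of heat shock units, GAANNTTC or TTCNNGAA, and for 3 units in a row, GAANNTTCNNGAA, which contains a pair of each kind. The windows of Hspa1a, Hspa1b and Hsph1 and the window shared by Hspd1 and Hspe1 are printed because they hold such matches and because their genes bear on the probe sets and pairs described below. Capitals mark every matched pair or triple. Hspa1a lies at chr17:34972107-34972406, Hspa1b at chr17:34959189-34959488 and Hsph1 at chr5:149636266-149636565, all on the minus strand, and Hspe1 lies at chr1:55087898-55088197 on the plus strand.
Hspa1a: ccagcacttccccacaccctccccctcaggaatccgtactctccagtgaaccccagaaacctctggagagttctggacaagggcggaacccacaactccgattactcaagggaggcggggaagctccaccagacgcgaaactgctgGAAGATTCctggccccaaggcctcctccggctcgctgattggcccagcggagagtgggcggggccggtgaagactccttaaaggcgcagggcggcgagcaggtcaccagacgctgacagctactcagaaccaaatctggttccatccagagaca
Hspa1b: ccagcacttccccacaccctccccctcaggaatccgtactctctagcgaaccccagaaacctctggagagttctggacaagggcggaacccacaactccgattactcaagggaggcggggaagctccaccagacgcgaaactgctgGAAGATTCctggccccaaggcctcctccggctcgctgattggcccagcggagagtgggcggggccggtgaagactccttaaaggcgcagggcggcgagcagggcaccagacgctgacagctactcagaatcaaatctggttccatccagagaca
Hsph1: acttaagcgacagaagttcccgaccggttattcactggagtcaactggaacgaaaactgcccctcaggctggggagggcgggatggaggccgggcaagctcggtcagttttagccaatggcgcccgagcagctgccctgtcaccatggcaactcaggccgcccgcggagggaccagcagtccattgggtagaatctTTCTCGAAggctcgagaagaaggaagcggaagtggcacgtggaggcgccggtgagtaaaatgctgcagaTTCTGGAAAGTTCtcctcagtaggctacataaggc
Hspe1: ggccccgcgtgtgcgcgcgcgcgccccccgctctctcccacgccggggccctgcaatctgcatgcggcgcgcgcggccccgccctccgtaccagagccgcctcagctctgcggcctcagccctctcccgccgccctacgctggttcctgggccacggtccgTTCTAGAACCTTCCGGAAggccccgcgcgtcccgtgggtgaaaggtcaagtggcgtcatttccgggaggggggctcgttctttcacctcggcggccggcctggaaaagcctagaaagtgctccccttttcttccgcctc

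The Hspa1a and Hspa1b windows were identical at 296 of 300 positions. The differences, written from Hspa1a to Hspa1b and counted from 1 at the 5′ end of the window, were C44T, T47C, T249G and C276T, so the pair GAAGATTC at -104 to -97 was the same in both. Hspd1 and Hspe1 are transcribed in opposite directions from the same stretch of chromosome 1, and the Hspe1 window overlapped the window of 1 Hspd1 start by 285 bases. Within that overlap lay 4 alternating units in a row, at -89 to -72 of Hspe1 and -144 to -127 of Hspd1. The window of the other Hspd1 start overlapped the Hspe1 window by 4 bases and held no pair or triple. Hsph1 held a pair at -54 to -47 and a triple at 16 to 28, counted from the same start. Neither Dnajb1 window held a pair or a triple. Over all 32851 promoter windows, 15.1% held either pair and 0.603% held a triple. The element TGATGNAA, which binds ATF4, was found in none of these members' windows and in 3.97% of all windows. A match describes letters only and was not tied to binding by any value here.

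**Figure D1:**
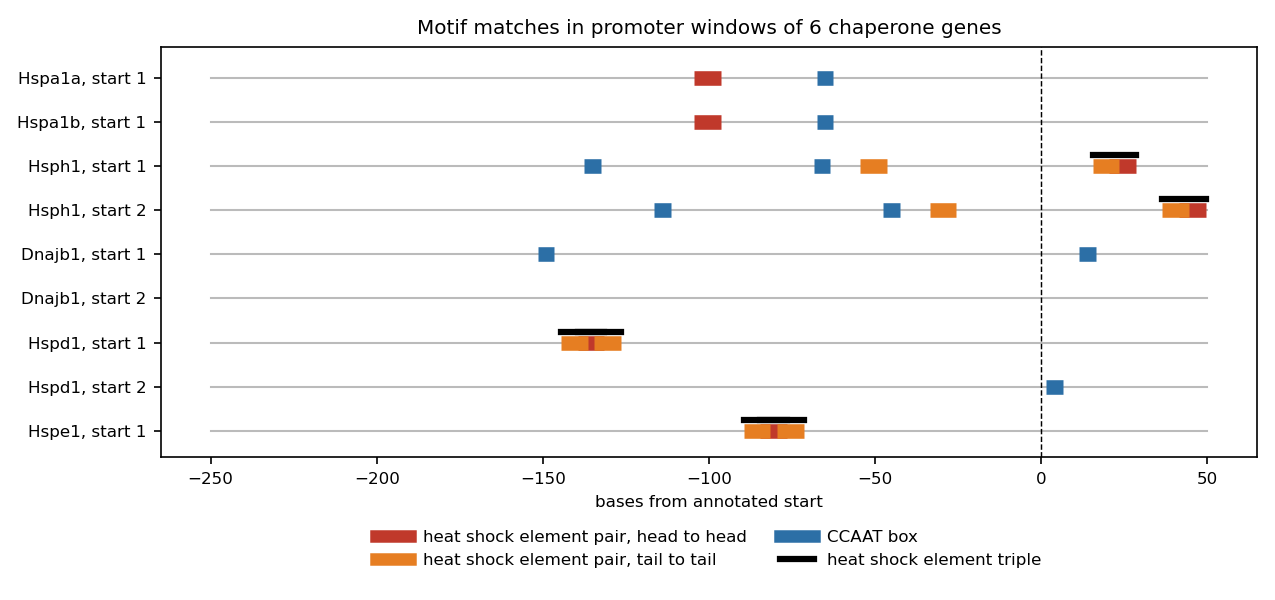
Positions of matched heat shock element pairs, heat shock element triples and CCAAT boxes (CCAAT on either strand, in 37.4% of all 32851 windows) in the promoter windows of 6 chaperone genes, in bases from each annotated start, with 1 line per start. The Hspa1a and Hspa1b lines match, and the triples of Hspd1 and Hspe1 are the same bases seen from opposite strands.

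Signals were quantile normalized, and those under 43.4, the 40th percentile, were raised to that floor before differences were taken on the log2 scale. A gene's difference is that of its brightest probe set (highest mean log2 signal), the other probe sets are given beside it, and 2-fold was the size counted. With no replicates, the only error that could be measured was the disagreement between probe sets of 1 gene. Their differences scattered about the gene's mean with an SD on the log2 scale of 0.64 between control effector and naive, 0.37 between TOFA and control, and 0.38 between Rap and control. The SD was 0.54 between memory and naive, 0.66 between memory and control effector, and 0.34 between TOFA and Rap. This SD leaves out whatever all probe sets of a gene share, such as differences between single cultures. All 6 CD4 T cell markers with a probe set were above the floor on every array, Cd4 itself at 483 to 897. The summed signal of 7 B cell markers was 32379 in naive, 49076 in memory and 1845 to 2601 in effector arrays, and that of 8 myeloid markers was 5850 in naive, 58159 in memory and 244 to 477 in effector arrays. Both sums were thus far higher in the naive and memory arrays. In naive, the B cell sum was mostly Ighm (27391), and the myeloid sum was mostly S100a8 and S100a9 (2917 and 1693). All of these B cell and myeloid markers but Pax5, Csf1r and Cd14 read higher in naive than in every effector array. The summed signal of 5 dendritic cell markers ran the other way, at 367 in naive, 1564 in memory and 3858 to 5036 in effector arrays (mostly Batf3), and so did that of 3 natural killer markers, at 331, 298 and 642 to 1964 (mostly Eomes). No other marker above the floor in these lists was higher in all effector arrays than in both resting arrays. Zbtb46 read 130 in naive, 298 in memory and 42.7 to 47.5 in effector arrays, and Ncr1 was above the floor in naive and memory only. The part of such cells in any difference between resting and effector arrays was not tested. In such bulk samples, fewer cells of a type and less RNA per cell cannot be told apart.

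By their brightest probe sets, the chaperones split into 3 patterns. Hspa8, Hsp90aa1, Hspd1, Hspe1 and Hspa9 had all 3 effector arrays above both resting arrays, a pattern shown by 25.3% of the 14406 genes above the floor on at least 1 array. Hspa8 did not show it with probe sets ending in _x_at or _s_at left out, or with the mean of all its probe sets. The stress-inducible pair Hspa1a and Hspa1b was close to the floor except with TOFA. Dnajb1 and Hsph1 had overlapping resting and effector arrays on their brightest probe sets, which spanned 0.45 and 0.72 on the log2 scale. On the other probe set of each gene, all 3 effector arrays lay above both resting arrays. With the mean of all probe sets, both genes showed the first pattern. The TOFA array was the highest of the 5 for 7 of the 9 genes (Hspa1a, Hspa1b, Hspa8, Hsph1, Hspa9, Hspd1 and Hspe1), against 16.9% of all genes. Hspa1a was above the floor on the TOFA array only, so its place was fixed by that filter, and without it the count was 6 of 8. For Hspa8 this order rested on a margin of 0.06 over Rap on the log2 scale, and Hspa8 left the group with the values as deposited.

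**Figure D2:**
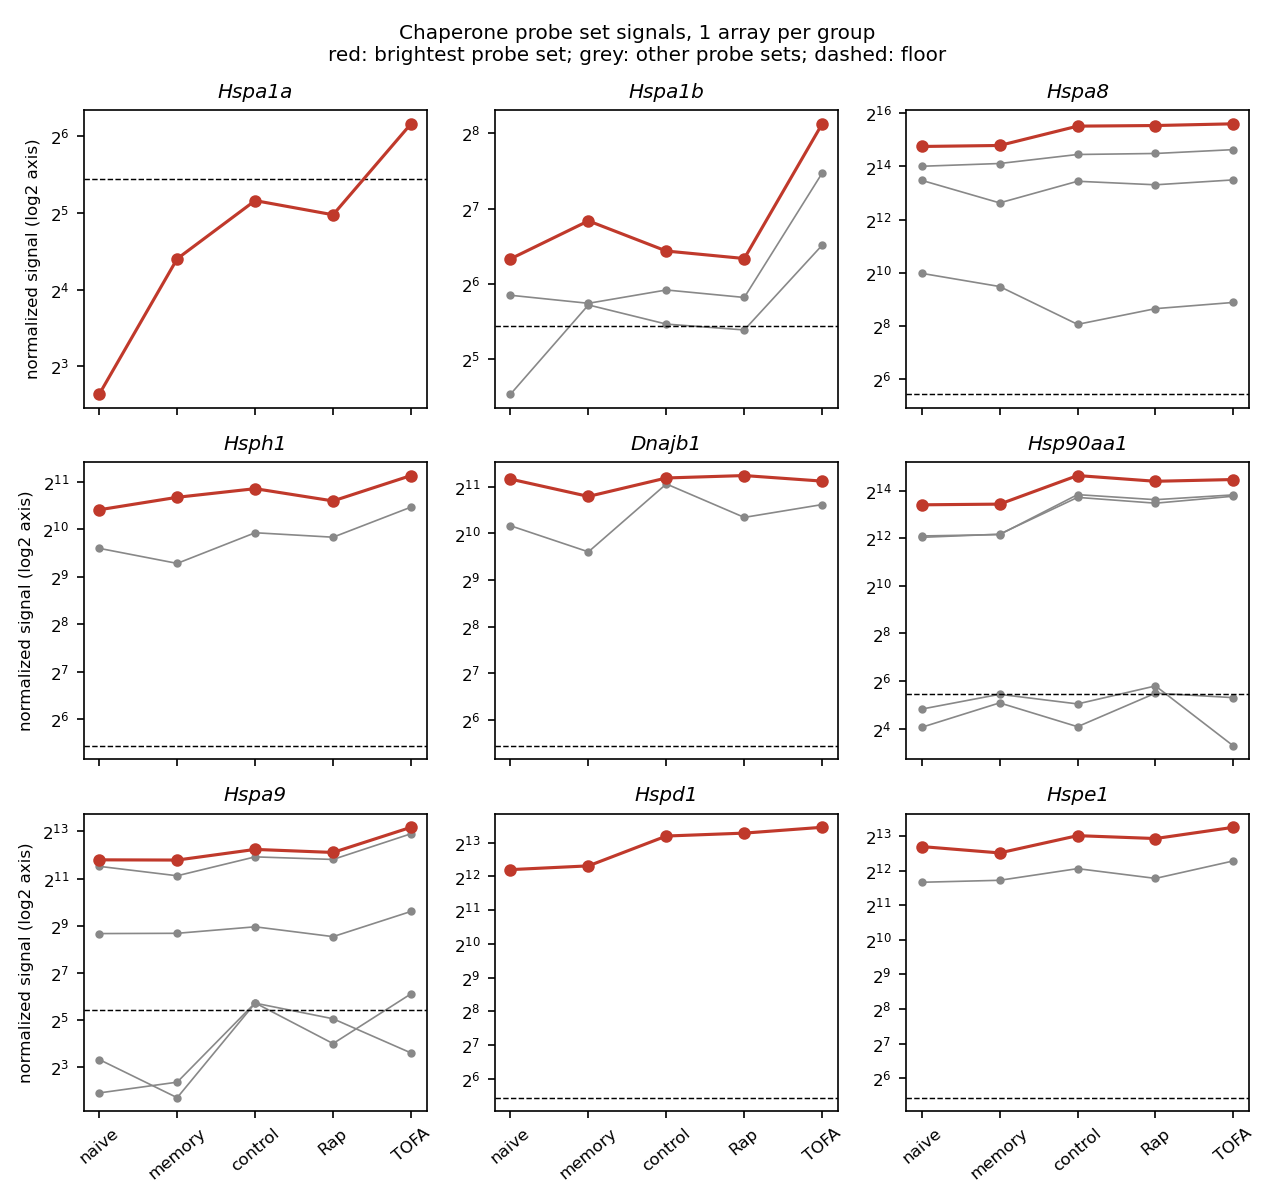
Normalized signal of every probe set of the 9 chaperone genes on each of the 5 arrays, on log2 axes whose ranges differ between panels, with the floor of 43.4 dashed. The TOFA point of Hspa1b and Hspa9 stands above the other 4 arrays on the brightest probe set, and Hsp90aa1 and Hspd1 show a step between the resting arrays and the effector arrays.

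Control effector cells were compared with naive cells to describe the chaperones after Th1 culture. Of the 8 members compared, all lay above 0 (51.9% of all genes did), with a median log2 difference of 0.44 against 0.03 for the 13062 genes compared. That all were above 0 did not hold in every alternative. Hspa1b stood at -0.03 with the values as deposited. Hspa8 stood at -0.19 with the mean of all probe sets, and at -0.04 with probe sets ending in _x_at or _s_at left out. Of them, 1 member, Hsp90aa1, was at least 2-fold higher (15.9% of all genes were), and 0 were at least 2-fold lower (11.4% of all genes were).

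Among the cytosolic members, Hsp90aa1, which encodes the inducible HSP90 alpha, had the largest difference. Its brightest probe set read 10842 in naive, 11060 in memory, 25416 in control effector, 21513 in Rap and 22640 in TOFA cells. The effector arrays stood apart from the resting arrays, while naive and memory lay 0.03 apart on the log2 scale. Control effector was 2.34-fold above naive, a log2 difference of 1.23, and a further pair of bright probe sets gave 1.68 and 1.74. The remaining 2 probe sets of Hsp90aa1 were below the floor in both of these arrays.

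Hspa8 encodes the constitutive HSP70 of the cytosol, which also uncoats clathrin vesicles. Its brightest probe set read 27594 in naive, 28319 in memory, 46875 in control effector, 47625 in Rap and 49792 in TOFA cells, so the effector arrays lay within 0.09 of each other on the log2 scale. The difference between control effector and naive was 0.76, and the other probe sets gave 0.44, -0.04 and -1.92. The last of these read 1012 in naive and 268 in control effector cells, the opposite order. The direction for Hspa8 therefore depended on the probe set, and with probe sets marked as able to match several transcripts (_x_at and _s_at) left out it was -0.04.

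Hsph1, the HSP110 exchange factor of HSP70, read 1359 in naive, 1630 in memory, 1849 in control effector, 1546 in Rap and 2238 in TOFA cells. Control effector was above naive by 0.44 on the log2 scale, less than the SD between probe sets of a gene (0.64), and the second probe set gave 0.33. Dnajb1, the HSP40 that hands clients to HSP70, read 2299 in naive, 1776 in memory, 2338 in control effector, 2423 in Rap and 2231 in TOFA cells on its brightest probe set. That probe set gave 0.02 between control effector and naive, whereas the other read 1148 in naive and 2139 in control effector cells, a difference of 0.90. The 2 probe sets of Dnajb1 thus gave different answers.

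In mitochondria, Hspd1 (HSP60) read 4714 in naive, 5091 in memory, 9404 in control effector, 9983 in Rap and 11254 in TOFA cells on its only probe set. The resting and effector arrays did not overlap, and control effector was 0.996 above naive on the log2 scale, just under the 2-fold limit of 1. Hspe1 (HSP10), its partner in the chamber, read 6644 in naive, 5851 in memory, 8269 in control effector, 7805 in Rap and 9778 in TOFA cells. The difference between control effector and naive for Hspe1 was 0.32, with 0.39 on its other probe set, both less than the SD between probe sets of a gene (0.64). Although the pair shares a start region, the Hspe1 step between naive and control effector was smaller than that of Hspd1; a test of that difference was not possible with these arrays.

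Hspa9, the mitochondrial HSP70 also called mortalin, read 3547 in naive, 3524 in memory, 4822 in control effector, 4408 in Rap and 9243 in TOFA cells. Control effector was 0.44 above naive on the log2 scale, and the other 2 probe sets above the floor on all arrays gave 0.40 and 0.29. All of these are less than the SD between probe sets of a gene (0.64). Hspa1b, a stress-inducible HSP70, read 80.6 in naive and 86.6 in control effector cells, a log2 difference of 0.10. Its neighbour Hspa1a was below the floor in both arrays and was not compared.

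TOFA effector cells were compared with control effector cells to ask which chaperones differed under an acetyl-CoA carboxylase inhibitor. Hspa1b and Hspa9 had the largest differences with measured signals on both arrays, and the other abundant members lay within 0.28 on the log2 scale. The median over 9 members was 0.26 against 0.01 over 12850 genes, and 7 of the 9 lay above 0 (51.3% of all genes did). Hspa1a entered only through its TOFA signal and could not lie below 0, and without it 6 of 8 lay above 0 with a median of 0.25. At least 2-fold higher was 1 member (2.47% of all genes were), and 0 were at least 2-fold lower (2.14% of all genes were).

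Hspa9 was 1.92-fold higher with TOFA, a log2 difference of 0.94, and 717th by size among the 12850 genes. A second probe set read 3870 in control effector and 7637 in TOFA cells (0.98), and a dimmer one read 494 and 777 (0.65). Every other array lay below both TOFA readings on the 2 brighter probe sets, where naive, memory, control and Rap spanned 2219 to 4822. Of the 2 probe sets of Hspa9 near the floor, 1 gave 0.39 and the other -0.27. Among genes whose higher array reached at least 2000, 1.5% were at least 2-fold higher with TOFA, and probe sets at that level scattered with an SD of 0.22.

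Hspa1b read 80.6 in naive, 114 in memory, 86.6 in control effector, 80.8 in Rap and 280 in TOFA cells on its brightest probe set. The TOFA array stood above the other 4, and the difference from control effector was 3.23-fold, or 1.69 on the log2 scale, the 77th highest of 12850. The other probe sets read 60.5 and 178 (1.55), and 44.2 and 91.4 (1.05). At such low signals the scatter was wider: with the higher array under 500, 3.54% of genes were at least 2-fold higher and probe sets scattered with an SD of 0.44.

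Hspa1a was above the floor on 1 array only, TOFA, at 71.7, and was listed at 6.2 in naive, 21.1 in memory, 35.8 in control effector and 31.5 in Rap cells. It was at least 1.65-fold higher with TOFA than with control. Hspa1a and Hspa1b encode nearly the same protein, their probe sets can share transcripts, and so the 4 probe sets cannot assign the signal to 1 of the 2 genes.

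On their brightest probe sets, the remaining members differed from control by less than the SD of 0.37 between probe sets of all levels. Among probe sets whose higher array reached at least 2000 this SD was 0.22, and Hsph1, Hspd1 and Hspe1 differed by more than that. Hsph1 was 0.28 higher on the log2 scale (0.54 on its other probe set), Hspd1 0.26 and Hspe1 0.24 (0.22 on its other probe set). With the values as deposited, Hsph1 stood at 0.31, but Hspd1 at 0.18 and Hspe1 at 0.20 fell under the 0.22 of the normalized values. Hspa8 differed by 0.09 (0.82 on its dimmest probe set), Dnajb1 by -0.07 (-0.44 on the other) and Hsp90aa1 by -0.17 (0.05 and -0.01 on its other bright probe sets). Mpeg1, a macrophage gene, read 155 with TOFA and 7.47 in control, and 4 of the 8 myeloid markers were above the floor with TOFA against 2 in control. The others of those 4 were Cd14 (74.4 with TOFA against 19.9 in control), Csf1r (126 against 84.0) and Adgre1, which was lower (44.6 against 59.8). Lyz2, Itgam, S100a8 and S100a9 were under the floor on both arrays. The part of such cells in these differences was not tested.

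**Figure D3:**
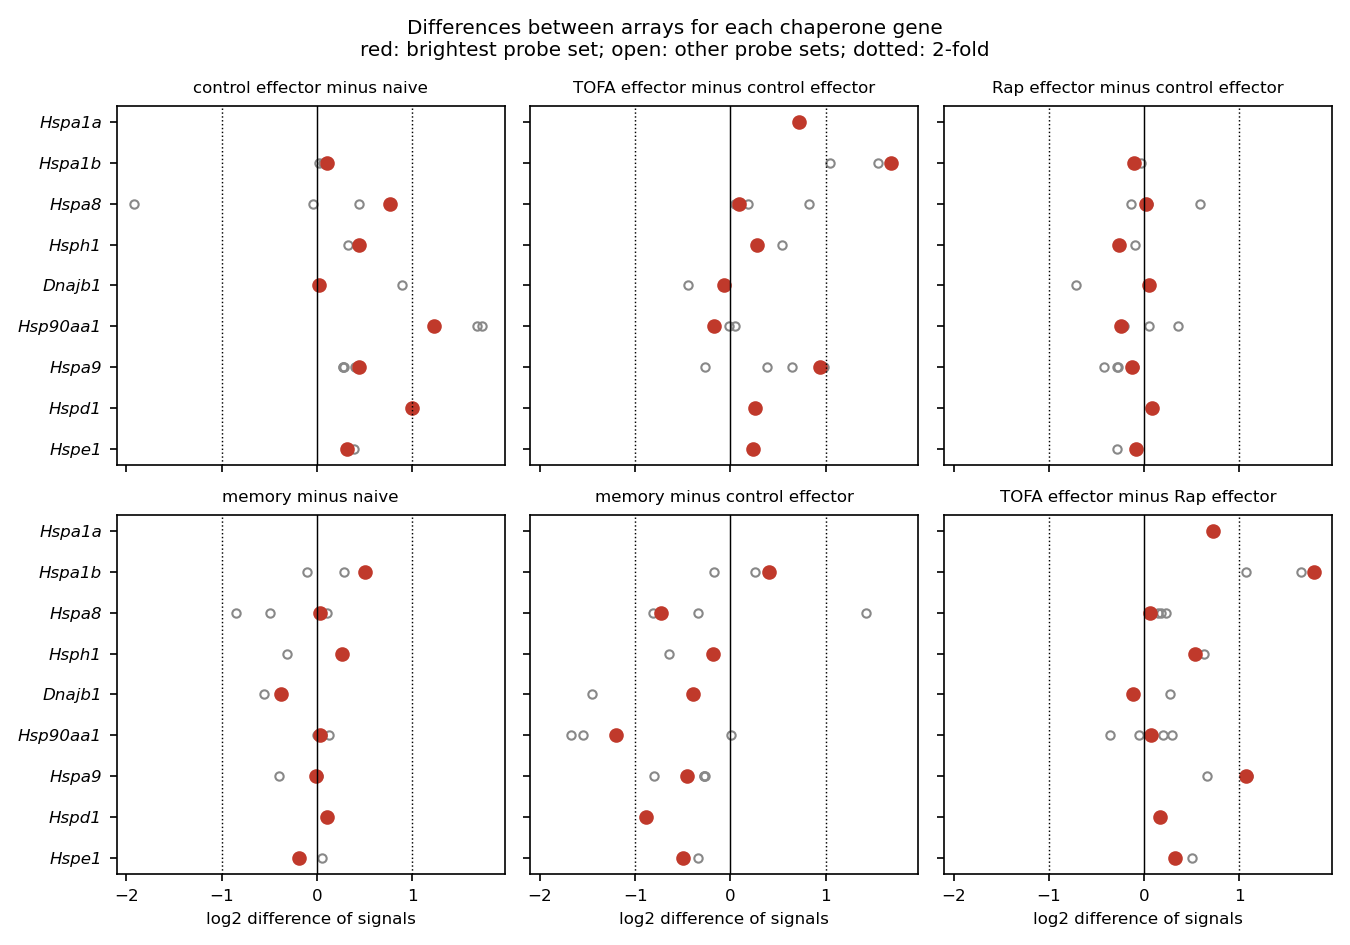
Log2 difference of signals for each chaperone gene in the 6 comparisons, with the brightest probe set in red, other probe sets as open circles and dotted lines at 2-fold. In the TOFA panel Hspa1b stands at 1.69 and Hspa9 at 0.94, while in the Rap panel no red point lies beyond 0.26 from 0.

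Rap effector cells were set against the same control array, which the TOFA comparison also used. All 8 compared members lay within 0.26 of 0 on the log2 scale, with a median of -0.09 against -0.005 over 12839 genes. No member was 2-fold higher (1.79% of all genes were) or 2-fold lower (3.91% of all genes were). Hsph1 at -0.26 and Hsp90aa1 at -0.24 were the lowest, and Hspd1 at 0.09 was the highest. Hspa9 stood at -0.13 and Hspa1b at -0.10, while the second probe set of Dnajb1 read 1300 with Rap and 2139 in control (-0.72).

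Set directly against Rap, TOFA gave higher signals for 8 of 9 members and for 52.8% of all genes. The median was 0.33 against 0.03 over 12783 genes. Without Hspa1a the count was 7 of 8 and the median 0.25. Hspa1b (3.46-fold, 1.79 on the log2 scale) and Hspa9 (2.10-fold, 1.07) were at least 2-fold higher, a size reached by 3.25% of all genes, and 0 were 2-fold lower (1.35% of all genes were). All 3 Hspa9 probe sets above the floor on every array gave 1.07 to 1.09. Hsph1 came next among genes measured on both arrays, at 0.53 and 0.63 on its probe sets. Dnajb1 was the only member below 0 on its brightest probe set, at -0.12, with 0.28 on the other.

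In memory cells most of these genes lay close to their naive level. Over 8 members the median difference between memory and naive was 0.03 against -0.05 over 13014 genes, and 0 were 2-fold apart in either direction (12.3% of all genes were higher and 4.13% lower). Hsp90aa1 differed by 0.03, Hspa8 by 0.04 and Hspa9 by -0.01, while Hspa1b (0.51) and Dnajb1 (-0.37) differed most. The SD between probe sets here was 0.54, and a second Hspa8 probe set read 11420 in naive and 6345 in memory cells (-0.85). Against control effector, memory was lower for 7 of 8 members, with a median of -0.48 against -0.03 over 13239 genes, of which 48.2% lay above 0. Hsp90aa1 was 2.30-fold lower (14.1% of all genes were at least 2-fold lower and 14.2% higher) and Hspd1 was 1.85-fold lower. Probe sets disagreed here too: the dimmest Hspa8 probe set gave 1.42 against -0.73 on the brightest, and the second Dnajb1 probe set gave -1.46 against -0.40. As deposited, the median of all genes in that comparison moved to 0.17 and the share of higher calls from 50.1% to 63.3%, and for memory against naive that share moved from 74.8% to 85.3%. The memory array had the highest myeloid and B cell marker sums of the 5 (58159 and 49076), and the part of such cells in these differences was not tested.

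Related genes were described by lists of the same pathway. Of the transcription factor list, Hsf1 had no probe set to its symbol alone here, and Hsf2 read 114 in naive, 175 in control effector, 184 in Rap, 253 in TOFA and 51.6 in memory cells. Between control effector and naive, the other HSP70 genes had a median of 1.002 with 3 of 5 at least 2-fold higher (15.9% of all genes were). These were Hspa4l (3.47-fold, with 0.46 to 1.10 on its other probe sets), Hspa2 (3.19-fold) and Hspa14, which lay at the limit and set the median (1.002, with -0.46 on another probe set). HSP90 co-chaperones had 3 of 12 higher and 2 lower (median 0.44), against 15.9% and 11.4% over the whole array. Among them, Stip1, the HOP adaptor that joins HSP70 to HSP90, was 2.58-fold higher and the myosin chaperone Unc45a 3.47-fold lower. Of 9 HSP70 cofactors only Bag2, an inhibitor of the CHIP ubiquitin ligase, was past 2-fold (5.69-fold higher; median 0.02). Of 13 cytosolic J-domain genes only Dnajc21 was (2.93-fold higher; median 0.05). The cytosolic TRiC chaperonin and prefoldin list had 2 of 14 higher (median 0.49), Tcp1 by 2.97-fold and Pfdn1 by 2.57-fold. Of 8 small heat shock protein genes Hspb6 was 3.35-fold higher (median 0.65). In the cofactor, J-domain, TRiC and prefoldin, and small heat shock protein lists, the share of higher genes was thus below that 15.9%.

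The mitochondrial import and quality control list, nearest in place to Hspa9, Hspd1 and Hspe1, had 17 of 19 genes above 0 and 4 at least 2-fold higher in the control effector array (naive as reference, median 0.72), while 51.9% of all genes lay above 0 and 15.9% were at least 2-fold higher. Lonp1, the matrix protease, was 3.69-fold higher, the disaggregase gene Clpb 3.30-fold (0.43 on the log2 scale on its other probe set) and the inner membrane protease gene Afg3l2 2.95-fold (1.86 and 0.86 on its others). With TOFA, 0 of the 19 were past 2-fold against control (2.47% of all genes were higher and 2.14% lower) and the median was 0.11. Trap1, the mitochondrial HSP90, read 1696 with TOFA against 1573, and Grpel1, the exchange factor of Hspa9, read 3706 against 3738. The protease subunit gene Clpp stood at 1319 against 767, a difference of 0.78. The difference in Hspa9 with TOFA was thus larger than that of all 19 genes of this list. With Rap, Lonp1 was 2.04-fold lower (1396 against 2853) and the list median was -0.14.

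Over all genes, 2.47% were at least 2-fold higher with TOFA than in control and 2.14% were lower. With TOFA, 0 genes were 2-fold apart from control in the lists of other HSP70 genes (median -0.05), J-domain proteins (0.17), HSP70 cofactors (0.01), HSP90 co-chaperones (0.01), small heat shock proteins (0.07), TRiC and prefoldin (-0.10) or the proteasome (0.11, 31 genes). In the first of these Hspa13 came just under 2-fold, at 1602 with TOFA against 805 (0.99), above the 0.94 of Hspa9. The HSP70 cofactor Bag3 read 169 with TOFA against 189 and Hspb1 (HSP27) read 88.9 against 139, both at signals under 500, where the SD was 0.44. Dnaja1 read 8078 against 6956. The lists of these 3 genes were mixed. HSP70 cofactors had 5 genes above 0 and 4 below, small heat shock proteins 4 and 3, and J-domain proteins 9 and 4. The list of 15 endoplasmic reticulum chaperones, folding factors of the secretory path, had the highest median of these lists (0.41), with 14 above 0 (51.3% of all genes were). Its HSP70, Hspa5 (BiP), read 12330 in naive, 12012 in control effector, 12632 in Rap, 23122 in TOFA and 19516 in memory cells, 1.92-fold higher with TOFA than in control. Dnajb9, its J-domain partner, was 2.18-fold higher and the only one of the 15 past 2-fold. The difference between the lists was not tested.

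With Rap, the list medians were -0.19 for other HSP70 genes, 0.01 for J-domain proteins, 0.32 for HSP70 cofactors, -0.02 for HSP90 co-chaperones, -0.11 for TRiC and prefoldin, -0.01 for endoplasmic reticulum chaperones and -0.01 for the proteasome. Small heat shock proteins had a median of -0.46, with Hspb1 2.48-fold lower (56.0 against 139) and Hspb8 2.001-fold lower, both at low signals. The other probe set of Hspb1 gave -0.35.

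**Figure D4:**
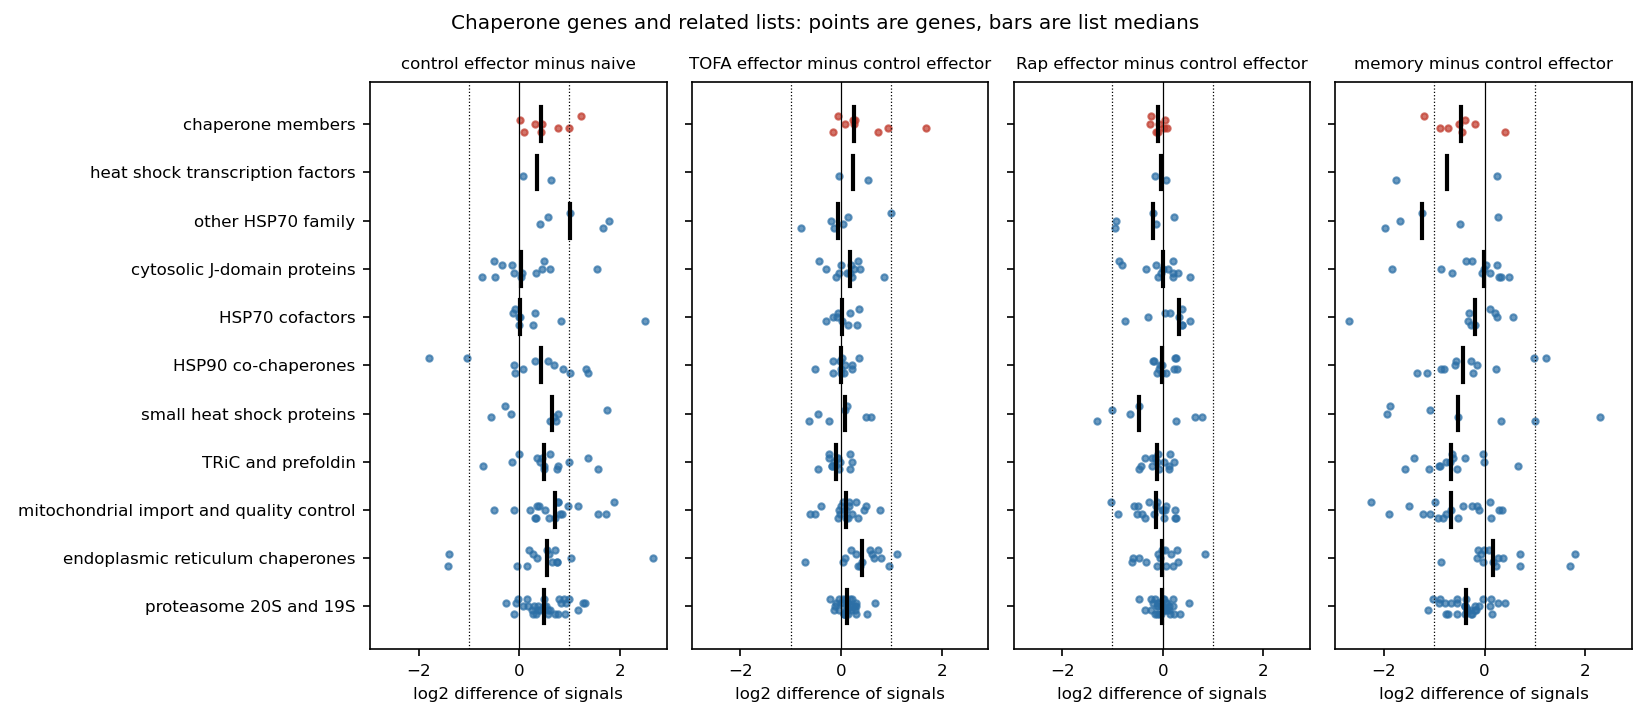
Log2 differences of the chaperone genes (red) and of 10 related lists (blue) in 4 comparisons, with 1 point per gene, black bars at list medians and dotted lines at 2-fold. In the TOFA panel the bars lie between -0.10 and 0.41, and the point of Hspa1b lies furthest right.

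For each member, the genes with the nearest profile over the 5 arrays were found by the root mean square distance between log2 profiles, each centred on its mean, among 10225 genes at or above a signal of 150.5 on at least 1 array. For Hspa1a these were Surf4 (distance 0.04) and Rel (0.05). The Hspa1a profile was held at the floor on every array but TOFA, so its neighbours were fixed by the floor and that 1 signal. For Hspa8 the nearest genes were Cops5 and Nsmce2 (both 0.04), and for Hsph1 Rmdn1 and Psmd11 (0.04 and 0.05). For Dnajb1 they were Fam53c and Minpp1 (0.01 and 0.03), and for Hspe1 Arcn1 and Ncl (both 0.03). Nearest to Hspa9 were Tars (distance 0.07) and Gas5 (0.09), and nearest to Hspa1b were Bst2 (0.16) and Slc3a2 (0.24). The profiles of Hspa9 and Hspa1b spanned 1.39 and 1.79 on the log2 scale, and Hspa9 ranked 24th by closeness to Hspa1b, at 0.36. By closeness to Hspa9, however, Hspa1b ranked only 647th, behind Hspe1 (213th), Hsph1 (282nd), Hspd1 (529th) and Hspa8 (551st). For Hspd1, Ccdc127 and Mettl6 were nearest (0.03 and 0.04), and Hspe1 ranked 3016th at 0.31, behind Hsp90aa1 (138th) and Hspa8 (146th). For Hsp90aa1 they were Dcps and Atp10a (0.03 and 0.04). With only 5 arrays many genes come this close, and no test was made.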

How the data were processed

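Each of the 5 samples has 1 column of deposited probe set intensity on a linear scale, matched by accession. Per the submitters' processing notes, GCOS and Affymetrix Expression Console were used. Which versions and which algorithm is not given in the sources used here. On each array this intensity had a mean of 500.003 after trimming 2% at each end. The array medians spanned 0.658 (log2), above the limit of 0.5, so 45037 probe sets were quantile normalized after 64 controls were set aside. Genes were named by the platform table (34945 probe sets with 1 symbol, 932 with several, 9160 with none). A gene with neither array above the floor was left out of that comparison, and a fold with 1 array at the floor is a lower bound. Named were all members with every probe set, up to 3 genes past 2-fold with the largest differences in each list, Hsf1, and for each member the 2 non-member genes with the nearest profile. Genes such as Hspa5, Hspa13, Trap1, Grpel1, Clpp, Bag3 and Dnaja1 were named outside this rule, after their values were seen. The members and lists were chosen with earlier results of these data known. The calculation was tested on simulated data, and 6 alternatives were tried. The number of arrays limits the precision. Python 3.11.15, pandas 2.3.3 and numpy 2.4.6 were used.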

Additional observations from a re-analysis of the deposited data

Results flagged for a closer look

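Hspa1b and Hspa9 lay on opposite sides of the shared control array with TOFA and Rap and were at least 2-fold apart between them. For Hspa1b the log2 differences from control were 1.69 with TOFA and -0.10 with Rap, and TOFA minus Rap was 1.79. For Hspa9 they were 0.94 and -0.13, and TOFA minus Rap was 1.07. Each group had 1 array, so the difference between TOFA and Rap was not tested, and the Rap values lie within the SD of 0.38 between probe sets.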

How the results depend on the processing

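No paired analysis was possible because each group had 1 array. Between control effector and naive cells, members at least 2-fold higher in the former numbered 2 with the values as deposited and 2 with the floor at the 20th percentile, and 0 with the mean of all probe sets, against 1. Over all genes, 1873 of 12997, 3164 of 16599 and 1680 of 13191 were higher in these settings, against 2073 of 13062. For TOFA against control they numbered 2 with the floor at the 20th percentile and 0 with it at the 60th, against 1. All genes higher there moved too, to 1213 of 16509 and 138 of 9249, against 317 of 12850. For TOFA against Rap they numbered 1 with the floor at the 60th percentile and 1 with the mean of all probe sets, against 2. Over all genes these were 194 of 9189 and 294 of 12914, against 415 of 12783. Members at least 2-fold lower in memory than in control effector cells numbered 2 as deposited and 0 with the mean of all probe sets, against 1. Over all genes, 1453 of 13778 and 1611 of 13387 were lower, against 1869 of 13239. The other 99 counts and medians stayed within 1.5 times the count or within the SD between probe sets. Among them, TOFA against Rap gave 3 members higher with the floor at the 20th percentile (1365 of all 16487 genes were). Hspa1b with TOFA against control fell to 0.89 with the floor at the 60th percentile, which raises its control signal by construction, and Hspa9 to 0.54 with the mean of all probe sets, which takes in its 2 probe sets near the floor. No chaperone member's difference past 2-fold reversed under any of the 6 alternatives; genes of the related lists were not rerun.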

Other observations

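A few related chaperone genes differed between memory and naive or control effector cells. Serpinh1, the collagen chaperone HSP47, read 212 in memory against a signal under the floor in naive cells, at least 4.89-fold higher, and its other probe set gave 1.53 on the log2 scale. The small heat shock protein gene Cryab read 147 in memory and was under the floor in naive cells, at least 3.39-fold higher, with its 2 other probe sets below the floor. All 8 myeloid markers were above the floor in the memory array, and the part of such cells in these values was not tested. The secretory path gene Sdf2l1 was 5.70-fold higher in memory than in naive cells, but naive was the low array, since control effector was 6.33-fold above it too. Against control effector cells, memory cells were 4.81-fold lower in Lonp1 and 6.48-fold lower in Bag2, and 3.26-fold higher in Dnajc3, a co-chaperone of BiP, whose 4 other probe sets gave 1.36 to 1.83.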
